A study of Homo sapiens with 6 samples.

Results

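Genes of cholesterol synthesis and its control by SREBP were followed in A549 cells, an established line from a human lung adenocarcinoma, after siRNA directed at the long noncoding RNA PLANE. The members were 8 named genes among 34957 gene identifiers of the deposited tables, chosen as listed genes whose totals per library could be read in both tables. The members and the gene lists were chosen with earlier results of these data known. Their shares beside those of all genes are therefore a description. The members are the enzymes HMGCS1, IDI1, FDFT1, SQLE and DHCR7, the SREBP regulators INSIG1 and SREBF2, and the fatty acid desaturase SCD. All 8 passed the minimum mean of 0.5 FPKM (fragments per kilobase of transcript, scaled to sequencing depth) in every comparison.

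Short-read RNA-seq was available for 3 groups with 2 libraries each. A549 cells had been transfected with Lipofectamine 3000 and harvested 48 h later, and the groups received a negative control siRNA (si-ctrl, replicates 1 and 2), the first PLANE siRNA (si-PLANE.1, replicates 1 and 2) or the second PLANE siRNA (si-PLANE.2, numbered 3 and 4 in the labels). The parental line, the transfection reagent and the time of harvest were shared by all groups. The labels do not say whether the groups were transfected or sequenced together. Nothing in the labels says that replicates came from separate cultures, so p-values measure the spread between these libraries, which may be technical. Expected counts, which are estimates of the reads of each transcript, summed to between 10572151 and 20778431 per library. The level of PLANE was not analysed here, and the knockdown is therefore unchecked in these libraries.

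Cholesterol is built from acetyl-CoA through mevalonate, isoprenoid units, squalene and lanosterol. When sterols in the endoplasmic reticulum are scarce, SCAP carries the SREBP proteins to the Golgi, where site-1 and site-2 proteases release a transcription factor that raises the genes of cholesterol synthesis, of sterol uptake and of fatty acid desaturation. When sterols are plentiful, the INSIG proteins hold SCAP back. SREBP binds the sterol regulatory element, commonly near sites for NF-Y and Sp1, and several SREBP targets, INSIG1 among them, are used as gauges of the state of this loop.

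The cells and libraries were checked against marker lists. The 10 A549 markers, among them keratins and aldo-keto reductases, were all expressed, with a summed level of 16400 to 16500 FPKM in si-ctrl, 12500 to 15000 in si-PLANE.1 and 28900 to 29000 in si-PLANE.2. Markers of other cell types were low, with summed levels of at most 10.4 FPKM for leukocytes, 0.59 for endothelial cells, 20.6 for fibroblasts and 1.83 for hepatocytes. Within the leukocyte list, CD3E was at 0 in every library and PTPRC reached at most 0.02 FPKM. CD14 of the same list ranged from 4.06 to 9.41 FPKM, and LYZ from 0.52 to 1.3 FPKM. The highest fibroblast marker, COL1A1, reached 13.13 FPKM, in si-PLANE.1 replicate 1.

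By 2 measures of content, both si-PLANE.2 libraries differed from the other 4. Histone mRNAs that mostly lack a poly(A) tail, of which 5 of the 17 listed genes could be matched, summed to 827 to 997 FPKM in si-ctrl, 484 to 702 in si-PLANE.1 and 18.5 to 22.4 in si-PLANE.2. Transcripts annotated as retaining an intron held 8.09% and 8.29% of all FPKM in si-ctrl, 8.39% and 8.41% in si-PLANE.1, and 4.59% and 4.75% in si-PLANE.2. The study's methods name both poly(A) selection and rRNA removal and do not say which libraries had which. In each si-PLANE.2 value that follows, the siRNA cannot be told apart from how its cells and libraries were handled.

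The promoters of the members were read for the elements of the SREBP loop. RefSeq windows of 250 bases before to 50 bases after a start site (GRCh38.p14) were given for 6 of 8 members, with SQLE and FDFT1 as the missing entries. Both strands were searched for TCACNCCAC (sterol regulatory element), CCAAT (NF-Y) and GGGCGG (Sp1), of which none contains another. The sterol element was found in 1 member, SREBF2, starting 133 bases before the start site, against 1.13% of 35116 promoters of the same length. The CCAAT letters were in at least 1 window of 6 of 6 members (34.6% of all promoters), and the Sp1 letters likewise in 6 of 6 (45.0%). HMGCS1, IDI1 and DHCR7 had more than 1 window each, whereas the percentages of all promoters count single windows. The member counts and these percentages, that of the sterol element included, are therefore not like for like. The CCAAT letters were missing from 1 window each of HMGCS1, IDI1 and DHCR7. The Sp1 letters were missing from 1 DHCR7 window. The 250 upstream bases of 4 members are shown. SREBF2 carries the sterol element, and SCD differed in the replicate comparison alone. HMGCS1 and INSIG1 differed in both the si-PLANE.2 and the replicate comparison, as did IDI1, which is not shown. For HMGCS1 the window with the CCAAT letters is given. Capitals mark TCACNCCAC and CCAAT, the latter also as its reverse complement ATTGG. A match of letters is a description, not a site of binding.
SREBF2 (chr22:41832855-41833104, plus strand): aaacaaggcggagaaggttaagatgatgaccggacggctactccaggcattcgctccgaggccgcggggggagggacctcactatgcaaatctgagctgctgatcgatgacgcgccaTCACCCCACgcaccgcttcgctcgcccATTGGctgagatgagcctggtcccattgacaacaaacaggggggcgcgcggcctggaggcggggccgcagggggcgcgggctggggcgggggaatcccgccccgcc
HMGCS1 (chr5:43313413-43313662, minus strand): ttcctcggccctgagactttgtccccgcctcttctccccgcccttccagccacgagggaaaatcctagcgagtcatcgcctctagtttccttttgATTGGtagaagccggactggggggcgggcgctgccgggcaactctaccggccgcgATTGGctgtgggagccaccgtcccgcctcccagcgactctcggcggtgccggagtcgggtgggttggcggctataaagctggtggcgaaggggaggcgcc
INSIG1 (chr7:155297628-155297877, plus strand): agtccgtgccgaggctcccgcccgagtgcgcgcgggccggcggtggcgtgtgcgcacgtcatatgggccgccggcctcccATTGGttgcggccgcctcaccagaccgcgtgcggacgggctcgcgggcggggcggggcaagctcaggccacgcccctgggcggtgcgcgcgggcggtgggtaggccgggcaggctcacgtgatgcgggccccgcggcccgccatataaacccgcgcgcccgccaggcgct
SCD (chr10:100346983-100347232, plus strand): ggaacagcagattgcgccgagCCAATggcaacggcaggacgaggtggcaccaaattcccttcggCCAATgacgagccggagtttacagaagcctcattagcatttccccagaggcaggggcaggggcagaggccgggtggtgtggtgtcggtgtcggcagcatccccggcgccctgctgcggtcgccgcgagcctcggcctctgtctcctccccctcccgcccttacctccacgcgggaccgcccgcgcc

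The levels of the members differed widely among themselves on the FPKM scale, which is per length. SCD, which desaturates saturated fatty acids, had the highest mean in si-ctrl at 373 FPKM, followed by FDFT1 at 127 FPKM, the squalene synthase that commits the pathway to sterols. HMGCS1, SREBF2 and DHCR7 followed with means of 59.7, 58.5 and 50.8 FPKM. The libraries of HMGCS1 overlapped with those of SREBF2 and of DHCR7, so HMGCS1 could not be ordered against either. SQLE had a mean of 37.4 FPKM, and IDI1 and INSIG1, whose libraries overlapped, had means of 17.8 and 17.0 FPKM. In si-PLANE.2, IDI1 at 49.4 FPKM stood beside SQLE at 48.2 FPKM and SREBF2 at 45.7 FPKM. The libraries of these 3 genes overlapped in that group, so none of them could be ordered against another.

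**Figure D1:**
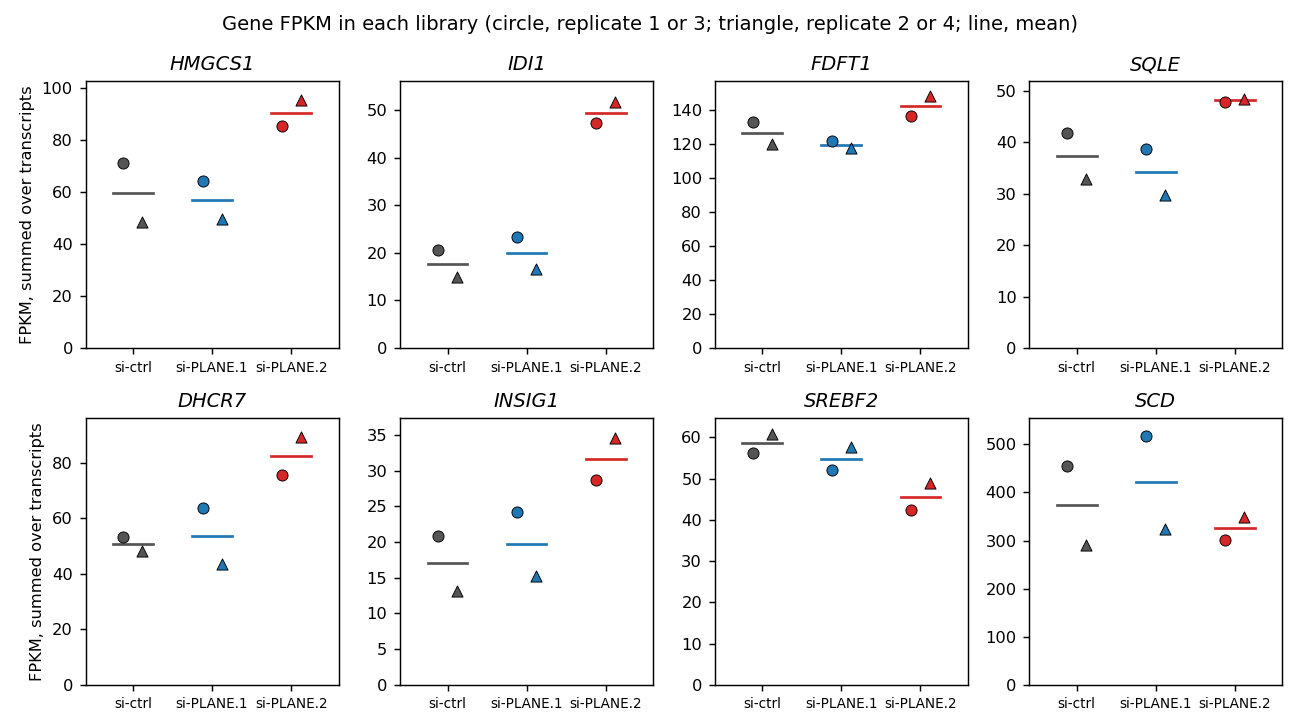
FPKM of each of the 8 genes (vertical axis, summed over transcripts, from 0) in each of the 6 libraries, by group on the horizontal axis. Circles are replicates 1 or 3, triangles replicates 2 or 4, and lines the mean of 2 libraries. For HMGCS1, IDI1, FDFT1, SQLE, DHCR7 and INSIG1 both si-PLANE.2 libraries lie above both si-ctrl libraries, while SREBF2 lies below.

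The first question was whether the members differed after si-PLANE.1. None of the 8 members was called at an adjusted p under 0.05 by edgeR's quasi-likelihood test with Benjamini-Hochberg adjustment, and the FPKM ranges of the 2 groups overlapped for all 8. DESeq2 also called none. One member, SREBF2, had an unadjusted p under 0.05. Across all genes, 5 of 14535 were called in either direction by edgeR (0.0344%) and 125 by DESeq2.

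HMGCS1 makes HMG-CoA early in the mevalonate branch (ENSG00000112972, GRCh37, chromosome 5, 43287572 to 43313614, minus strand). It had 71.07 and 48.39 FPKM in si-ctrl against 64.32 and 49.52 FPKM in si-PLANE.1. Both si-PLANE.1 libraries lay inside the range of si-ctrl, and the log2 difference of −0.23 ± 0.23 (SE, adjusted p = 0.748, edgeR) was about the size of its error. SREBF2, the SREBP isoform that mainly serves the cholesterol genes (ENSG00000198911, chromosome 22, 42229109 to 42303310, plus strand), had 56.32 and 60.78 FPKM in si-ctrl against 52.12 and 57.57 FPKM in si-PLANE.1. Its log2 difference was the largest in size among the members, at −0.29 ± 0.12 (SE) (adjusted p = 0.47, edgeR). The other 6 members had log2 differences between −0.20 (SQLE) and 0.08 (SCD), with adjusted p between 0.643 and 0.974 (edgeR). 

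The pathway lists were as quiet for si-PLANE.1. None of 21 cholesterol synthesis enzymes was called, with a median log2 difference of −0.09 against 0.0018 for all genes tested. None was called among 7 genes of SREBP control, 9 tested SREBP targets of fatty acid synthesis, 5 genes of cholesterol transport and storage, and 6 targets of LXR, the sterol-sensing nuclear receptors.

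The second question was whether the members differed after si-PLANE.2. By counts, 7 of 8 members were higher than in si-ctrl and none was lower, with SCD as the member that did not pass the test. Of all 14168 genes tested, 4512 were higher (31.8%) and 4571 were lower (32.3%). The median log2 difference of the members was 0.70, against −0.03 for all genes tested. Housekeeping genes moved in the same direction, with 10 of 14 higher, 1 lower and a median of 0.76, and so did the A549 markers, with 9 of 10 higher and a median of 0.87. The part of these shifts in the members' values was not tested.

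IDI1, which interconverts the isoprenoid units (ENSG00000067064, chromosome 10, 1085092 to 1095059, minus strand), differed most. It had 20.54 and 14.96 FPKM in si-ctrl against 47.16 and 51.56 FPKM in si-PLANE.2, from 329 to 495 expected counts in the former and 1721 to 1835 in the latter. The groups did not overlap, and the log2 difference was 1.80 ± 0.19 (SE), or 3.49-fold (adjusted p = 0.000121, edgeR). It kept its call under every alternative, with the lowest log2 difference of 1.30 in limma on log2(TPM + 1).

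DHCR7, which performs the last step of cholesterol synthesis through 7-dehydrocholesterol (ENSG00000172893, chromosome 11, 71139239 to 71163914, minus strand), was next. It had 53.20 and 48.31 FPKM in si-ctrl against 75.68 and 89.44 FPKM in si-PLANE.2. The lower si-PLANE.2 library was above the higher si-ctrl library. The log2 difference on counts was 1.51 ± 0.13 (SE), or 2.86-fold (adjusted p = 4.66e-05, edgeR), and on log2(FPKM + 1) it was 0.69.

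HMGCS1 had 85.33 and 95.29 FPKM in si-PLANE.2, above both si-ctrl libraries. Its log2 difference on counts was 1.01 ± 0.19 (SE), or 2.01-fold (adjusted p = 0.00268, edgeR), and the call was lost with its most abundant transcript alone (0.39, adjusted p = 0.182). SQLE, the squalene epoxidase and a rate-controlling step (ENSG00000104549, chromosome 8, 126010739 to 126034525, plus strand), had 41.82 and 32.93 FPKM in si-ctrl against 47.91 and 48.52 FPKM in si-PLANE.2. The groups did not overlap, with 1.48-fold higher counts (log2 0.56 ± 0.12, SE, adjusted p = 0.00426, edgeR).

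FDFT1 (ENSG00000079459, chromosome 8, 11653082 to 11696904, plus strand) differed least among the enzymes. It had 133.32 and 120.18 FPKM in si-ctrl against 136.88 and 148.23 FPKM in si-PLANE.2. The gap between the groups was small, and counts were 1.35-fold higher (log2 0.44 ± 0.10, SE, adjusted p = 0.00509, edgeR). The call was lost on log2(FPKM + 1) (0.17, adjusted p = 0.219, limma) and without si-PLANE.2 replicate 4 (0.42, adjusted p = 0.0652, edgeR).

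INSIG1, the sterol-sensitive anchor of SCAP (ENSG00000186480, chromosome 7, 155089486 to 155101945, plus strand), had 20.84 and 13.20 FPKM in si-ctrl against 28.73 and 34.55 FPKM in si-PLANE.2. Both si-PLANE.2 libraries lay above si-ctrl, and counts were 1.78-fold higher (log2 0.83 ± 0.19, SE, adjusted p = 0.00594, edgeR).

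SREBF2 had 42.45 and 48.85 FPKM in si-PLANE.2, below both si-ctrl libraries. Its expected counts were 2429 and 2413 in si-ctrl and 4274 and 4329 in si-PLANE.2, and edgeR gave a log2 difference of 0.53 ± 0.10 (SE, adjusted p = 0.00312), whereas limma on log2(FPKM + 1) gave −0.35 (adjusted p = 0.047). The gene total was thus called in opposite directions on the 2 scales, and its transcripts are described further down. The edgeR call was lost without si-PLANE.2 replicate 4 (0.43, adjusted p = 0.056).

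SCD (ENSG00000099194, chromosome 10, 102106990 to 102124583, plus strand) had 455.75 and 290.66 FPKM in si-ctrl against 300.40 and 350.01 FPKM in si-PLANE.2. The si-PLANE.2 libraries lay inside the range of si-ctrl, and the log2 difference on counts was −0.01 ± 0.20 (SE, adjusted p = 0.961, edgeR). The result rested on the spread of the si-ctrl libraries. With 1 of them left out, the lone library is assumed to vary like the si-PLANE.2 pair, and the gap between the si-ctrl libraries no longer enters the error. Without si-ctrl replicate 1 SCD was called higher (0.31, adjusted p = 0.00075), and without si-ctrl replicate 2 it was called lower (−0.28, adjusted p = 0.00127, both edgeR).

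Without overlap on the FPKM scale, 6 of 8 members had both si-PLANE.2 libraries above both si-ctrl libraries, against 30.9% of all genes tested, and SREBF2 had both below. On log2(FPKM + 1) the median difference of all genes tested was −0.22, and limma called 5 members, with IDI1, DHCR7, HMGCS1 and INSIG1 higher and SREBF2 lower. On log2(TPM + 1) the median of all genes was −0.37, and limma called 3 members, IDI1 and DHCR7 higher and SREBF2 lower. Relative to these medians, SREBF2 differed by −0.13 and −0.14.

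**Figure D2:**
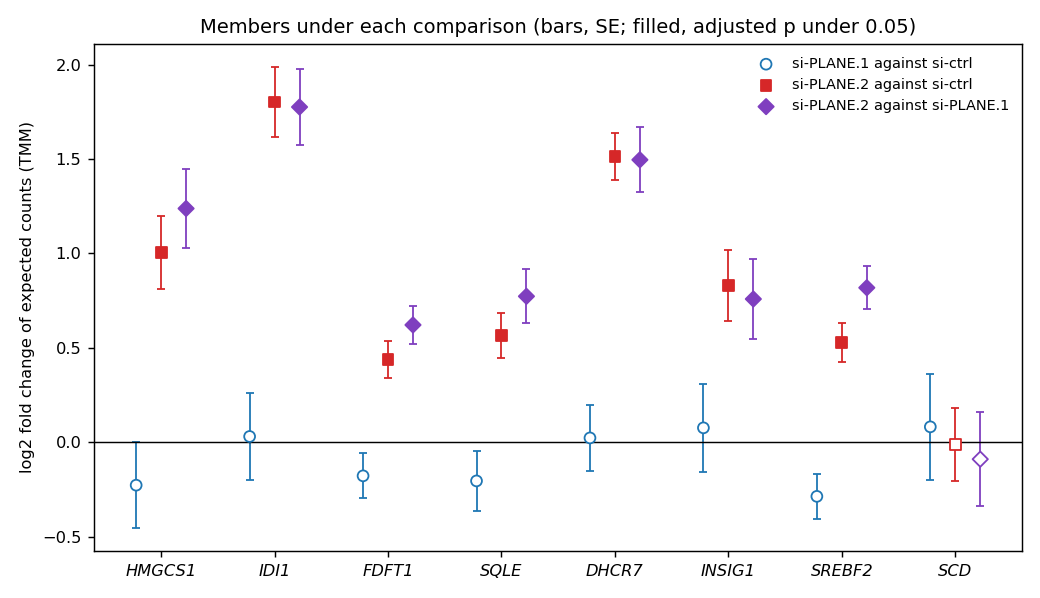
Log2 fold change of TMM-scaled expected counts (vertical axis) for each of the 8 genes under 3 comparisons, with SE bars. Filled symbols passed an adjusted p of 0.05 in edgeR. All si-PLANE.1 symbols are open and near 0, and 7 of 8 genes are filled and above 0 in both comparisons of si-PLANE.2, with SCD as the exception.

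The rest of the cholesterol pathway followed the members in part. By counts, 16 of 21 enzymes were higher, 1 was lower and 4 did not pass. In the same comparison 31.8% of all genes tested were higher and 32.3% lower, and of 14 housekeeping genes 10 were higher and 1 was lower. The median log2 difference of the enzymes was 0.98, beside −0.03 for all genes and 0.76 for the housekeeping genes. Among the 16 enzymes that are not members, 11 were higher and 1 was lower. The largest differences were in the mevalonate branch, for PMVK (2.21 ± 0.13, SE, 4.62-fold, adjusted p = 1.41e-05), MVD (2.16 ± 0.11, 4.46-fold) and MVK (1.84 ± 0.15, 3.57-fold), which phosphorylate and decarboxylate mevalonate. PMVK had 13.18 and 12.75 FPKM in si-ctrl against 56.64 and 47.34 FPKM in si-PLANE.2, without overlap. LBR, which has a sterol reductase domain and also anchors chromatin at the nuclear lamina, was lower (−0.71 ± 0.11, SE, adjusted p = 0.000952, edgeR).

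CYP51A1 at 0.26 ± 0.14 and MSMO1 at 0.25 ± 0.12, which act in demethylation steps, did not pass (adjusted p = 0.13 and 0.108, edgeR). GGPS1 and SC5D at −0.07 and −0.01 did not pass either.

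**Figure D3:**
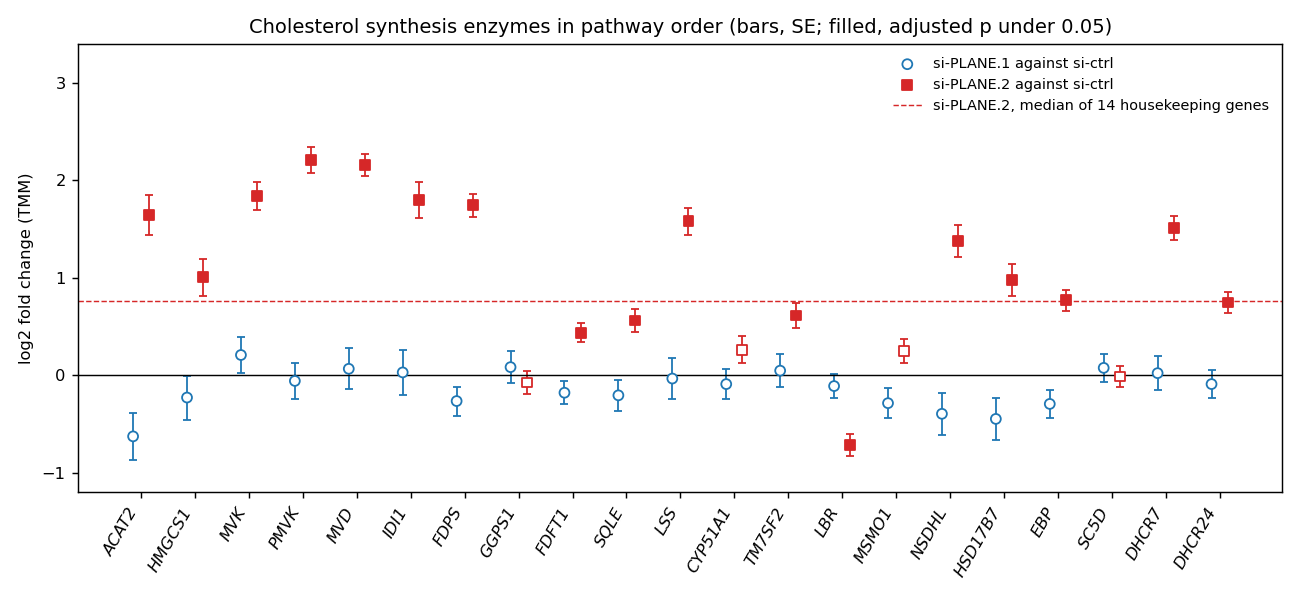
Log2 fold change of TMM-scaled expected counts (vertical axis, SE bars) for 21 enzymes of cholesterol synthesis in pathway order, for si-PLANE.1 (circles) and si-PLANE.2 (squares) against si-ctrl. Filled symbols passed an adjusted p of 0.05 in edgeR, and the dashed line is the si-PLANE.2 median of the housekeeping genes at 0.76. Of the si-PLANE.2 squares, 16 are filled above 0, LBR is filled below 0 and 4 are open.

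The genes that control SREBP did not share 1 direction after si-PLANE.2, and for a list this small the shares called were near those of all genes. Of 7, against 31.8% of all genes higher and 32.3% lower in this comparison, 3 were higher (SREBF1, INSIG1 and SREBF2) and 2 were lower, the proteases MBTPS2 (−0.64 ± 0.10, SE) and MBTPS1 (−0.31 ± 0.09), with a list median of −0.10. SREBF1 was called higher on counts (0.92 ± 0.17, SE, adjusted p = 0.00231, edgeR) but stood at −0.11 on log2(FPKM + 1) (adjusted p = 0.495, limma), with 120.01 and 95.26 FPKM in si-ctrl against 98.75 and 98.66 FPKM in si-PLANE.2. SCAP and INSIG2 did not pass, at −0.10 and −0.13.

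The shares called among the fatty acid, transport and LXR lists are read against the same background. Of the 9 tested SREBP targets of fatty acid synthesis, 2 were higher, 1 was lower and the median was −0.01. The desaturases FADS2 (1.21 ± 0.19, SE) and FADS1 (0.65 ± 0.17) were higher by counts and did not pass in limma on log2(FPKM + 1) (0.41 and 0.09), and FADS1 fell below 0 in limma on log2(TPM + 1). The elongase ELOVL5 was lower (−0.49 ± 0.10, SE, adjusted p = 0.00287, edgeR). FASN, the fatty acid synthase, stood at −0.01 ± 0.14 and did not pass.

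Of 5 genes of cholesterol transport and storage, 2 were higher and 1 was lower, with a median of −0.01. NPC2, which hands cholesterol out of lysosomes, differed most (2.29 ± 0.10, SE, 4.91-fold, adjusted p = 5.04e-06, edgeR), from 84.68 and 88.83 FPKM in si-ctrl to 340.86 and 342.16 FPKM in si-PLANE.2. TMEM97, an endoplasmic reticulum protein that binds NPC1, was higher by counts (0.38 ± 0.10, SE, adjusted p = 0.0107, edgeR) but was called lower on log2(FPKM + 1) (−0.95, adjusted p = 0.00589, limma). SOAT1, which esterifies cholesterol for storage, was lower (−0.53 ± 0.11, SE).

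Of 6 LXR targets, 1 was higher, 2 were lower and the median was −0.09. The cholesterol exporters ABCA1 (−2.45 ± 0.33, SE, adjusted p = 0.000426, edgeR) and ABCG1 (−0.76 ± 0.25, adjusted p = 0.0309) were lower. The ABCG1 call was lost with all 6 libraries in one fit (adjusted p = 0.0604), without si-ctrl replicate 1 (−0.37, adjusted p = 0.135) and without si-PLANE.2 replicate 3 or 4 (adjusted p = 0.118 and 0.131, all edgeR). ABCA1 was scarce throughout, with 1.83 and 1.22 FPKM in si-ctrl against 0.17 and 0.27 FPKM in si-PLANE.2. LPCAT3, a phospholipid acyltransferase, was higher by counts (0.64 ± 0.10, SE) and did not pass on log2(FPKM + 1) (0.31, adjusted p = 0.0515, limma).

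The 2 PLANE siRNAs were compared directly in a fit of all 6 libraries, since each comparison above shares the si-ctrl libraries. Again 7 of 8 members were higher in si-PLANE.2 than in si-PLANE.1, against 4485 of 14440 genes (31.1%), and SCD did not pass (−0.09 ± 0.25, SE, adjusted p = 0.769, edgeR). The differences ran from 0.62 ± 0.10 (SE) for FDFT1 to 1.78 ± 0.20 for IDI1. DHCR7 had 63.75 and 43.45 FPKM in si-PLANE.1, both below si-PLANE.2, with a log2 difference on counts of 1.50 ± 0.17 (SE, adjusted p = 9.91e-05, edgeR). INSIG1 had 24.17 and 15.23 FPKM in si-PLANE.1, also without overlap, and its call at 0.76 ± 0.21 (SE, adjusted p = 0.0119, edgeR) was lost without si-PLANE.1 replicate 2 (0.54, adjusted p = 0.0832) and without si-PLANE.2 replicate 4 (0.65, adjusted p = 0.0823). SREBF2 was higher by counts (0.82 ± 0.11, SE) and stood at −0.26 on log2(FPKM + 1) (adjusted p = 0.106), and it was called lower on log2(TPM + 1) (−0.49, adjusted p = 0.0141, both limma).

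The gene totals were then split into transcripts, since the tables give values per transcript. The members had 67 transcripts, of which 41 were tested for si-PLANE.2 and 39 for si-PLANE.1, and 29 reached 5% of their gene's FPKM in any group. For si-PLANE.2, 8 member transcripts were higher and 3 were lower, against 14519 of all 56791 transcripts called in either direction (25.6%). The share of tested member transcripts called in either direction was near that of all transcripts. The transcript values that follow are therefore a description and not a trait particular to these genes. For si-PLANE.1 none was called, 3 had an unadjusted p under 0.05, and none of all 57625 transcripts was called (0.0%) by edgeR. DESeq2 called 1 member transcript for si-PLANE.1. Leaving out either si-PLANE.2 library left no transcript called, so these calls need both libraries. Names and types of transcripts are those of GENCODE.

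SREBF2 changed in the makeup of its transcripts. The full-length coding transcript SREBF2-201, of 5240 bases, had 32.49 and 29.24 FPKM in si-ctrl against 28.00 and 23.94 in si-PLANE.1 and 40.42 and 46.73 in si-PLANE.2. It was the highest in the si-PLANE.2 libraries and was called higher there (0.78 ± 0.12, SE, adjusted p = 0.0201, edgeR). The retained-intron transcript SREBF2-204, of 796 bases, had 15.40 and 10.82 FPKM in si-ctrl against 20.20 and 15.16 in si-PLANE.1 and 0.52 and 0.00 in si-PLANE.2. It was nearly absent from si-PLANE.2 without passing the transcript test (adjusted p = 0.0552, edgeR). Retained-intron transcripts together held 39.5% and 47.2% of SREBF2 FPKM in si-ctrl, 41.5% and 54.6% in si-PLANE.1, and 2.61% and 3.25% in si-PLANE.2. These transcripts are short and carry few counts, so that SREBF2-201 held 91.0% and 86.2% of the gene's expected counts in si-ctrl but 57.7% and 48.1% of its FPKM. The coding transcripts of SREBF2 summed to 32.89 and 29.42 FPKM in si-ctrl and 40.8 and 46.73 in si-PLANE.2. Its retained-intron transcripts summed to 22.24 and 28.69 FPKM in si-ctrl and 1.11 and 1.59 in si-PLANE.2. The FPKM total was thus lower while its coding part was higher. All genes tested also had a median of −0.22 on log2(FPKM + 1), and the part of each in the opposite SREBF2 calls was not tested.

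DHCR7 shifted mainly between 2 coding transcripts. DHCR7-201, of 2666 bases, had 22.82 and 17.27 FPKM in si-ctrl against 30.87 and 20.65 in si-PLANE.1 and 63.41 and 76.66 in si-PLANE.2. The shorter DHCR7-206, of 1005 bases, had 25.67 and 26.00 FPKM in si-ctrl against 24.01 and 17.66 in si-PLANE.1 and 2.09 and 3.51 in si-PLANE.2. The former was called higher after si-PLANE.2 (2.09 ± 0.19, SE, adjusted p = 0.00917) and the latter lower (−2.92 ± 0.36, adjusted p = 0.0144, both edgeR), and si-ctrl and si-PLANE.1 overlapped for DHCR7-201. DHCR7-206 took 48.3% and 53.8% of the gene's FPKM in si-ctrl and 2.76% and 3.92% in si-PLANE.2.

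FDFT1 showed the same kind of shift among coding transcripts. FDFT1-201, of 2176 bases, had 12.56 and 7.72 FPKM in si-ctrl against 8.51 and 8.95 in si-PLANE.1 and 53.04 and 57.30 in si-PLANE.2 (2.73 ± 0.27, SE, adjusted p = 0.0103, edgeR). FDFT1-209, of 1890 bases, had 16.58 and 18.99 FPKM in si-ctrl against 14.38 and 13.57 in si-PLANE.1 and 2.89 and 0.87 in si-PLANE.2 (−2.94 ± 0.66, SE, adjusted p = 0.0433, edgeR). FDFT1-216, of 741 bases, was listed at 0 in all 4 libraries of si-ctrl and si-PLANE.1, against 15.31 and 21.74 FPKM in si-PLANE.2 (adjusted p = 0.0118, edgeR). ENST00000525777, of 1472 bases and not in the annotation, had 7.12 and 9.28 FPKM in si-ctrl and 0.29 and 0.00 in si-PLANE.2. It was called lower (−5.52 ± 1.32, SE, adjusted p = 0.0491, edgeR). FDFT1-202, the most abundant transcript in si-ctrl, had 61.95 and 54.78 FPKM there and 37.07 and 44.00 FPKM in si-PLANE.2, and did not pass (−0.23 ± 0.14, SE, adjusted p = 0.277, edgeR). The FDFT1 total was thus higher by counts while FDFT1-202 was not.

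Among the remaining members, HMGCS1 also shifted in the makeup of its transcripts. HMGCS1-202 held 81.2% and 87.8% of the gene's expected counts in si-ctrl and 51.1% and 57.9% in si-PLANE.2. HMGCS1-201 was at 4.96 and 0.00 FPKM in si-ctrl, at 0 in both libraries of si-PLANE.1 and at 29.30 and 26.51 FPKM in si-PLANE.2, and did not pass (adjusted p = 0.183, edgeR), while HMGCS1-202 overlapped between the groups. IDI1-201 carried most of IDI1 and had 15.91 and 9.36 FPKM in si-ctrl against 39.89 and 42.19 FPKM in si-PLANE.2 (1.99 ± 0.28, SE, adjusted p = 0.0182, edgeR). SQLE-201 held 97.8% or more of SQLE in every library and was called higher (0.66 ± 0.15, SE, adjusted p = 0.0417, edgeR). SCD had 1 transcript, so its total is that transcript. None of the INSIG1 transcripts at 5% or more passed. For INSIG1-202 the values were 0.25 and 1.30 FPKM in si-ctrl and 3.64 and 5.72 FPKM in si-PLANE.2. For INSIG1-204 they were 0.68 and 0.00 FPKM in si-ctrl and 4.34 and 4.74 FPKM in si-PLANE.2.

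**Figure D4:**
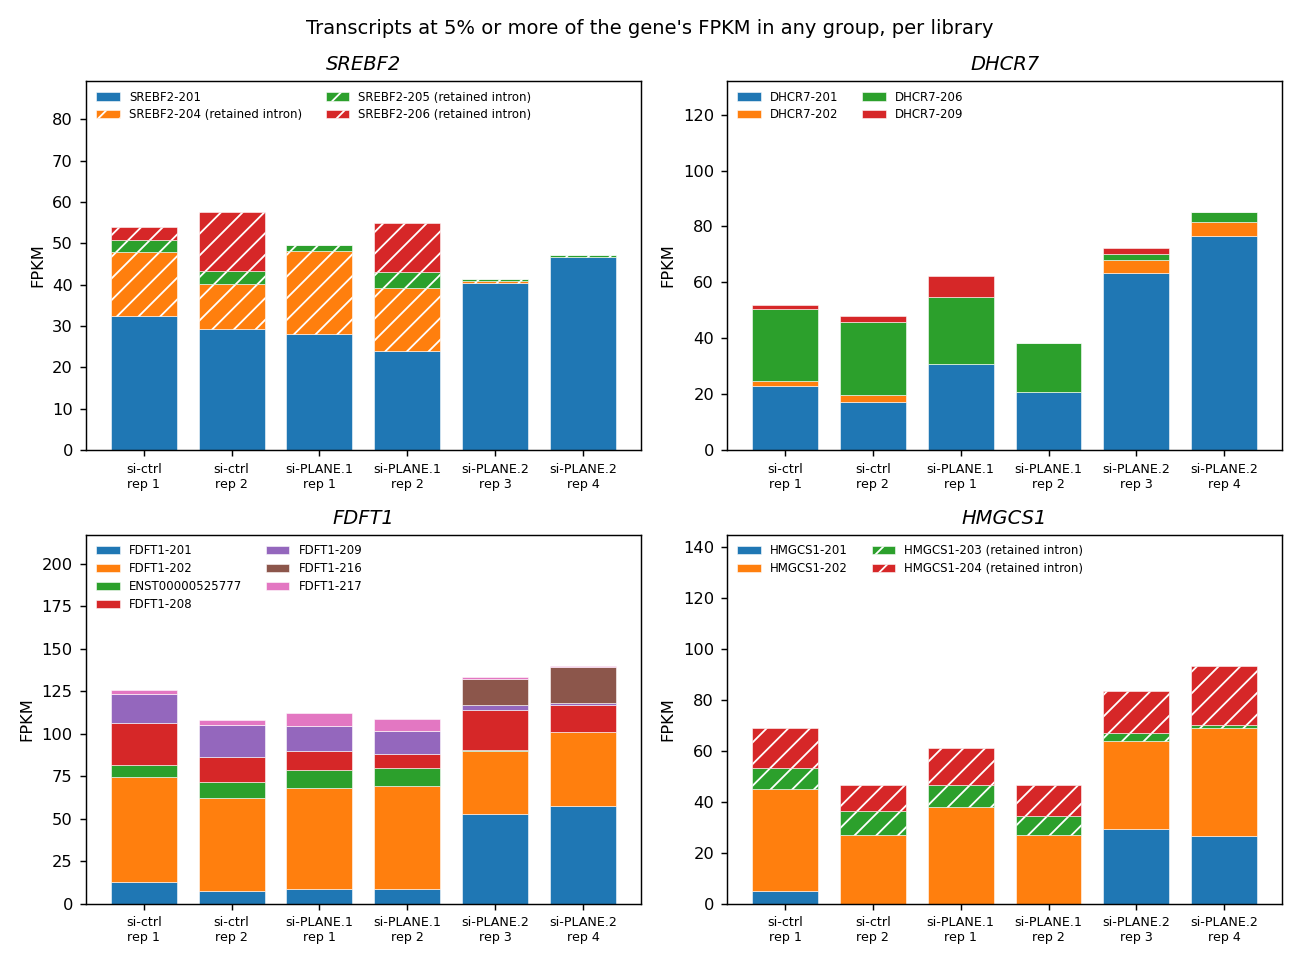
Stacked FPKM (vertical axis, from 0) of the transcripts at 5% or more of the gene's FPKM in any group, for SREBF2, DHCR7, FDFT1 and HMGCS1 in each of the 6 libraries (horizontal axis). Hatched parts are transcripts annotated as retaining an intron. The hatched parts of SREBF2, 41.5% or more of its FPKM in si-PLANE.1, nearly vanish in both si-PLANE.2 libraries, and DHCR7-201 and FDFT1-201 are taller there.

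The third question was whether the libraries with the same replicate number moved together. Both si-ctrl and si-PLANE.1 carry the numbers 1 and 2. A fit with the group and the replicate number over these 4 libraries called 4 of 8 members lower and none higher, against 424 of 14535 genes lower (2.92%). The median log2 difference of the members was −0.42, beside 0.0023 for all genes tested. This difference was larger in size than that between si-ctrl and si-PLANE.1 for 6 of the 8 members, with FDFT1 and SREBF2 as the exceptions.

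SCD had 455.75 and 517.67 FPKM in the replicate 1 libraries and 290.66 and 324.91 FPKM in the replicate 2 libraries of si-ctrl and si-PLANE.1, in that order. Both replicate 1 libraries were above both replicate 2 libraries. The log2 difference on counts was −0.61 ± 0.13 (SE, adjusted p = 0.000127, edgeR), with −0.61 within si-ctrl and −0.61 within si-PLANE.1.

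HMGCS1 was 36.3% lower in replicate 2 within si-ctrl and 24.1% lower within si-PLANE.1 on TMM-scaled counts (−0.53 ± 0.11, SE, adjusted p = 0.00021, edgeR). IDI1 was 34.5% and 22.6% lower (−0.49 ± 0.15, adjusted p = 0.0175), and INSIG1 was 33.4% and 26.9% lower (−0.52 ± 0.14, adjusted p = 0.00615). These 3 genes, from an early, a middle and a regulatory step of the pathway, thus had differences of like size. SQLE (−0.31 ± 0.12, adjusted p = 0.0862) and DHCR7 (−0.34 ± 0.12, adjusted p = 0.0668) had the same sign in both groups and did not pass. FDFT1 (−0.06 ± 0.11) and SREBF2 (−0.08 ± 0.11) differed by less than their SE.

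**Figure D5:**
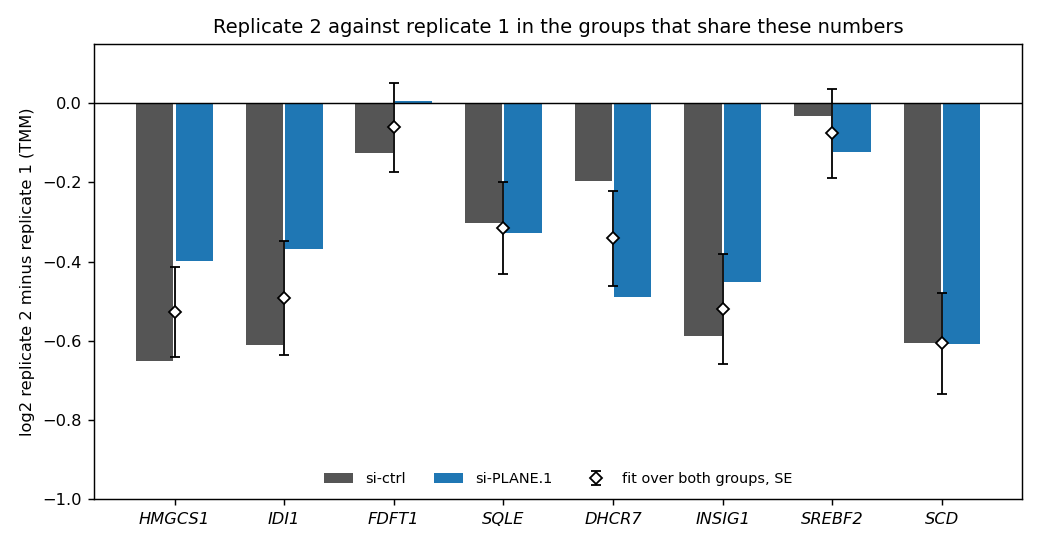
Log2 difference of TMM-scaled expected counts, replicate 2 minus replicate 1 (vertical axis), for each of the 8 genes within si-ctrl (grey bars) and si-PLANE.1 (blue bars). Diamonds are the fit over both groups with its SE. HMGCS1, IDI1, INSIG1 and SCD lie between −0.37 and −0.65 in both groups, and FDFT1 and SREBF2 lie near 0.

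On TMM-scaled counts, 7 of 8 members were lower in replicate 2 in both groups, against 29.5% of all genes tested. On the FPKM scale, 7 of 8 members had both replicate 1 libraries above both replicate 2 libraries, against 21.6% of all genes, and SREBF2 was the exception. Among the 21 enzymes, 15 were lower in replicate 2 in both groups on TMM-scaled counts, and 14 had both replicate 1 libraries above on FPKM. The fit called 3 of the 21, HMGCS1, IDI1 and the lanosterol synthase LSS (−0.43 ± 0.14, SE, adjusted p = 0.0404, edgeR), with a list median of −0.24.

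Other SREBP targets were among the genes lower in replicate 2. SREBF1, which mainly serves fatty acid synthesis and is itself raised by LXR, was lower (−0.68 ± 0.11, SE, adjusted p = 1.73e-07, edgeR), as were 4 of 9 fatty acid genes, namely FADS2 (−0.70 ± 0.12), SCD, FASN (−0.46 ± 0.12) and FADS1 (−0.44 ± 0.12). Among the LXR targets, ABCA1 (−0.77 ± 0.17) and ABCG1 (−0.76 ± 0.19) were lower and NR1H3, which encodes LXR alpha, was higher (0.47 ± 0.15, adjusted p = 0.0291, edgeR). In the list of SREBP control genes, 2 of 7 were lower, SREBF1 and INSIG1, while 3 of 7 lay above 0 and the median was −0.02. None of the 5 genes of cholesterol transport and storage was called, with a median of −0.08. These counts stand beside 424 of 14535 genes lower (2.92%) and 389 higher in the same fit.

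The replicate numbers went with other genes too. B2M, a subunit of MHC class I, had 2818.11 and 4149.92 FPKM in the replicate 1 libraries and 917.24 and 834.68 FPKM in the replicate 2 libraries of si-ctrl and si-PLANE.1, a wider gap than that of any member. What else differed between the numbers was not tested. The fit leaves 1 residual degree of freedom, so its calls lean on the spread shared across genes. DESeq2 called 2 members, HMGCS1 and SCD, and limma on FPKM or TPM called none, with the same sign for all members but SREBF2. LSS, SREBF1, FADS2, FASN, FADS1, ABCA1, ABCG1 and NR1H3 were not called in those limma fits either, and DESeq2 did not call LSS or NR1H3. In si-PLANE.2, whose numbers 3 and 4 are shared with no other group, replicate 4 had the higher FPKM for all 8 members, against 52.0% of all genes tested.

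The profiles of the members over the 6 libraries were last set beside those of all genes of at least 5 FPKM on average, 10033 in number, by the root mean square distance of centred log2(FPKM + 1) values. Among the members, HMGCS1 and SQLE were nearest to each other (0.13), followed by HMGCS1 and DHCR7 (0.14). The nearest genes overall were TFRC for HMGCS1 (0.06), TMEM53 for SQLE (0.03), PCYT2 for IDI1 (0.06), WIPF1 for FDFT1 (0.02), RPP25 for INSIG1 (0.10), SULF2 for SREBF2 (0.04), CFD for DHCR7 (0.06) and SPATA33 for SCD (0.06). The second nearest were WDR5 for HMGCS1, MYLIP for SQLE, PPIB for IDI1, COMMD9 for FDFT1, PDCL3 for INSIG1, STRA6 for SREBF2 and METTL25B for SCD. TFRC, the transferrin receptor, had 61.57 and 38.34 FPKM in si-ctrl against 53.10 and 41.27 in si-PLANE.1 and 76.95 and 80.09 in si-PLANE.2. Like HMGCS1, it was lower in replicate 2 of both groups and higher in si-PLANE.2. These distances rest on 6 libraries in 3 groups and are a description.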

How the data were processed

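RNA from A549 cells, 48 h after transfection, was sequenced by the authors in 6 libraries. The submitters' processing notes name Trimmomatic 0.30, HISAT2 2.0.1, HTSeq 0.6.1, DESeq and the hg19 build. For each transcript the authors deposited expected counts, estimates of its reads that were not normalized, made with a tool that is not given in the sources used here. The authors also deposited FPKM values, normalized for transcript length and depth. Their 2 tables list 180253 transcripts each with identical si-ctrl values. Transcripts without a gene identifier (16723) were left out of gene sums and carried 3.03% to 3.62% of counts.

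Expected counts and FPKM were summed per gene, counts were rounded, and genes that averaged 0.5 FPKM or more in the libraries of a fit were tested with edgeR 4.0.16 (TMM, glmQLFit, glmQLFTest) in R 4.3.3, with Benjamini-Hochberg adjustment over all genes tested and a threshold of 0.05. SE was obtained from the log2 fold change and the F statistic. Fits of 4 libraries set each siRNA against si-ctrl, a fit of 6 compared the siRNAs with each other, and replicate 2 was compared with replicate 1 beside the group in si-ctrl and si-PLANE.1. Alternatives were DESeq2 1.42.0, RLE and upper-quartile scaling, limma 3.58.1 on log2(FPKM + 1), log2(FPKM + 0.1) and log2(TPM + 1), no filter, a minimum of 2 FPKM, the most abundant transcript per gene, a replicate block, other sets of libraries and leaving out each library. The scripts were tested on simulated data. Of 108 listed genes, 94 were matched to the tables, and ACACA, PECAM1 and 12 histone genes were not. Gene positions come from GENCODE release 44 on GRCh37, and promoters from RefSeq.

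The members and gene lists were chosen with earlier results of these data known. Text names the members and 2 nearest genes per member. It also names up to 4 called genes per list, comparison and direction by size of the log2 fold change. Of the transcripts at 5% or more of their gene's FPKM in any group, it names those called and some others. ACAT2, FDPS and other enzymes appear in the figure only. CYP51A1, MSMO1, GGPS1, SC5D, SCAP, INSIG2, FASN, B2M, TFRC, CD3E, PTPRC, CD14, LYZ and COL1A1 were named after their values were seen. Some genes that the rule would name are not reported here and were left out of the lists. With 2 libraries per group, precision is low.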

Additional observations from a re-analysis of the deposited data

Results flagged for a closer look

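The members that differed between the PLANE siRNAs in the direct test over 6 libraries, in edgeR at an adjusted p under 0.05, were HMGCS1 (log2 difference of 1.24), SQLE (0.77), IDI1 (1.78), FDFT1 (0.62), INSIG1 (0.76), SREBF2 (0.82) and DHCR7 (1.50), all higher in si-PLANE.2 by counts. They were singled out because the 2 siRNAs were directed at the same RNA and these genes differed between the libraries of the 2. Of all genes tested, 31.1% were higher in the same comparison. By FPKM SREBF2 went the other way, with 42.45 and 48.85 in si-PLANE.2 against 52.12 and 57.57 in si-PLANE.1. The library content that set the si-PLANE.2 libraries apart moved with these differences, since the matched histone genes summed to 484 to 702 FPKM in si-PLANE.1 and 18.5 to 22.4 FPKM in si-PLANE.2. The siRNA and the library preparation cannot be told apart here.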

How the results depend on the processing

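For si-PLANE.1 no member was called under any alternative, while the count over all genes, 5 as reported, was 125 with DESeq2, 1 and 3 with limma on log2(FPKM + 1) and log2(FPKM + 0.1), 1 with limma on log2(TPM + 1), 0 with the most abundant transcript, 17 with all 6 libraries in one fit and 1 to 5 with 1 library left out. A replicate block gave 1225 genes and no member. The difference between replicates in si-ctrl correlated with that in si-PLANE.1 at 0.207 over 14535 genes, and with 2 pairs the libraries share only a number. For si-PLANE.2 against si-ctrl, 7 members became 3 in limma on TPM and 5 to 8 with 1 library left out. For si-PLANE.2 against si-PLANE.1, 7 became 4, 4 and 2 in the limma fits in the same order, and 6 to 7 with 1 library left out.

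For replicate 2 against replicate 1, 813 genes became 233 with DESeq2, 42, 62 and 71 in the limma fits and 95 with the most abundant transcript, and the 4 members became 2, 0, 0, 0 and 0. That fit could not be run with a library left out, for lack of residual degrees of freedom. For transcripts, DESeq2 called 391 for si-PLANE.1, of which 1 was of a member. For si-PLANE.2 the 11 member transcripts became 19 with DESeq2 and 20, 17 and 21 in the limma fits, and 0 to 11 with 1 library left out, when all transcripts called ranged from 0 to 11805.

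Directions turned on the FPKM and TPM scales. In limma on log2(FPKM + 1), log2(FPKM + 0.1) and log2(TPM + 1), in that order, si-PLANE.2 against si-ctrl gave −0.35, −0.36 and −0.51 for SREBF2, −0.11, −0.12 and −0.27 for SREBF1, and −0.95, −0.97 and −1.11 for TMEM97, and TPM gave −0.065 for FADS1. The direct comparison of the siRNAs gave −0.26, −0.27 and −0.49 for SREBF2. For si-PLANE.1 TPM gave 0.018 for HMGCS1. For the replicates the limma fits gave 0.12, 0.13 and 0.025 for SREBF2. The most abundant transcript gave −0.33 for FDFT1, −3.55 for FADS2 and −10.68 for TMEM97 (si-PLANE.2 against si-ctrl), and −0.27 for FDFT1 (between siRNAs). Without a filter SCD was at 0.0088 for si-PLANE.2. With 1 library left out, differences for si-PLANE.1 that changed sign ranged from −0.52 to 0.14 for HMGCS1, −0.24 to 0.37 for IDI1, −0.19 to 0.41 for INSIG1, −0.24 to 0.25 for DHCR7 and −0.25 to 0.42 for SCD, and SCD ranged from −0.28 to 0.31 for si-PLANE.2 and −0.37 to 0.24 between the siRNAs. The cause of these turns was not tested.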
